A study of Rattus norvegicus with 8 samples.

Results

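The genes described here are 10 rat genes of xenobiotic metabolism: the aryl hydrocarbon (Ah) receptor gene Ahr, its classical target genes Cyp1a1, Cyp1b1 and Nqo1, the flavin monooxygenase genes Fmo1 and Fmo5, the mu class glutathione transferase genes Gstm1, Gstm2 and Gstm6l, and the aldo-keto reductase gene Akr1c13. They were read by the 11 probe sets annotated to exactly 1 of these symbols, of 31042 probe sets on the array that are not controls (14217 named genes). Ahr has 2 probe sets and the other 9 genes have 1 each. Cyp1a1, Fmo5, Gstm6l and Akr1c13 were included because they differed between lineages in 1 of the preparations. The differences between lineages are therefore given below as descriptions, with no test. The difference between preparations, averaged over lineages, was not itself used to choose genes and was tested, except for Cyp1a1. A shift of a single group still enters that mean, so the calls of Fmo5 and Gstm6l are not apart from the choice of genes.

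RNA of male Sprague-Dawley rats of the F3 generation was hybridised to 8 Affymetrix arrays, 2 for each of 4 groups. These were prostate epithelium of the vinclozolin lineage and of the control lineage at 45 days of age, and whole ventral prostate of the vinclozolin lineage and of the control lineage at 180 days. Pregnant founder females had received intraperitoneal injections from day 8 to day 14 of gestation. Vinclozolin is a fungicide with antiandrogenic activity, and the study asked whether the prostate transcriptome of later descendants differed. The labels' treatment protocol names the vehicle, DMSO, for all samples, those titled vinclozolin included, so the lineages are those of the sample titles. Each epithelium sample pooled 11 animals and each whole prostate sample pooled several. Nothing in the labels says that the pools of a group were made from different animals, so errors and p-values describe only how these pools vary, which may be technical.

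The Ah receptor is a transcription factor that is activated by planar aromatic ligands, pairs with Arnt in the nucleus and binds short elements near its target genes. Cytochromes P450 of family 1 and flavin monooxygenases oxidise foreign compounds, which is the first phase of detoxification. Aldo-keto reductases reduce carbonyl groups, those of steroids among them, and glutathione transferases then attach glutathione to reactive products. In the prostate, enzymes of these families also act on steroid hormones and on their reactive metabolites.

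Of the 10 genes, 8 had a promoter sequence of 300 bases in RefSeq (GRCr8), from 250 bases before the gene's start to 50 after it. The core of the Ah receptor element, GCGTG on either strand, was found in the windows of Cyp1b1, Nqo1 and Fmo5, which are shown here because they hold the letters of that element. It was not in the windows of Ahr, Fmo1, Gstm1, Gstm2 and Akr1c13. Of 33469 such windows in all, 29.7% held it. The core of the antioxidant response element, TGACNNNGC on either strand, was in 0 of the 8 windows and in 12.1% of all windows. In Cyp1b1 the matches began 81 and 20 bases before the start, on the minus and the plus strand of the gene. In Nqo1 the match began 10 bases before the start and in Fmo5 it began 146 bases before it, both on the gene's minus strand. A match is a description of the letters, and its absence says only that they are not in this window. The sequences below run 5′ to 3′ on the gene's strand, with matches in capitals, from chr6:21094315-21094614 (plus strand) for Cyp1b1, chr19:52220218-52220517 (minus strand) for Nqo1 and chr2:187910714-187911013 (plus strand) for Fmo5.
Cyp1b1: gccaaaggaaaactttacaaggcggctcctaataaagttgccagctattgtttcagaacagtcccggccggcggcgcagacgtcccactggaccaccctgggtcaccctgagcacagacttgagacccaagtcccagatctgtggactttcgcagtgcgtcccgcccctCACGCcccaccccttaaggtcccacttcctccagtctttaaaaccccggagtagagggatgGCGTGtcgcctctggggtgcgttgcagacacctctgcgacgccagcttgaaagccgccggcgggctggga
Nqo1: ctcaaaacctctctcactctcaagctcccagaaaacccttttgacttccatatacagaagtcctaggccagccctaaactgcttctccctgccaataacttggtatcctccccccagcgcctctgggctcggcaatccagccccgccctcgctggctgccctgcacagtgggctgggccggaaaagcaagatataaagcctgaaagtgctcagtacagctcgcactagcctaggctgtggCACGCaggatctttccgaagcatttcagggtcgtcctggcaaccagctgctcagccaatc
Fmo5: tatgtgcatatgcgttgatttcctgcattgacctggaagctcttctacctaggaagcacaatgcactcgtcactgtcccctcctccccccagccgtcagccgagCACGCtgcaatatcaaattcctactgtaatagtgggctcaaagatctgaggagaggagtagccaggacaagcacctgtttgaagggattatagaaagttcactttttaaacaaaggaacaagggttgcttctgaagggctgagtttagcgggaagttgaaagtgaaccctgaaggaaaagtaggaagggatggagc

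The preparations were checked against markers of their cell types, by summed deposited intensity. Luminal epithelial markers were at 18216 to 18826 units on the epithelium arrays and at 17357 to 18186 on the whole prostate arrays. Marker by marker these did not run higher in epithelium. The median log2 difference of the 6, epithelium minus whole prostate, was -0.08, and 2 of the 6 lay above 0. Smooth muscle markers were at 12904 to 14969 units on the epithelium arrays, against 1902 to 2489 on the whole prostate arrays, and basal markers at 3261 to 3446 against 471 to 598. The arrays labelled epithelium thus carried more smooth muscle and basal marker signal than those labelled whole prostate. The share of probe sets under 16 units ran from 28.3% to 36.7% over the arrays. Arrays did not always correlate best within their group (Spearman, across probe sets). Whole prostate vinclozolin replicate 1 correlated with control replicate 2 at 0.931 and with its own replicate at 0.927. Epithelium vinclozolin replicate 2 correlated with control replicate 2 at 0.931 and with its own replicate at 0.929, and that control array correlated with its own replicate at 0.927. No detection calls were used here, so for dim probe sets it is unknown whether a signal was above background. Levels below are deposited intensities, and differences are on the log2(intensity + 16) scale after quantile normalisation, with the standard error (SE) of the limma fit and n = 2 arrays per group. The added 16 understates the change of dim probe sets.

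**Figure D1:**
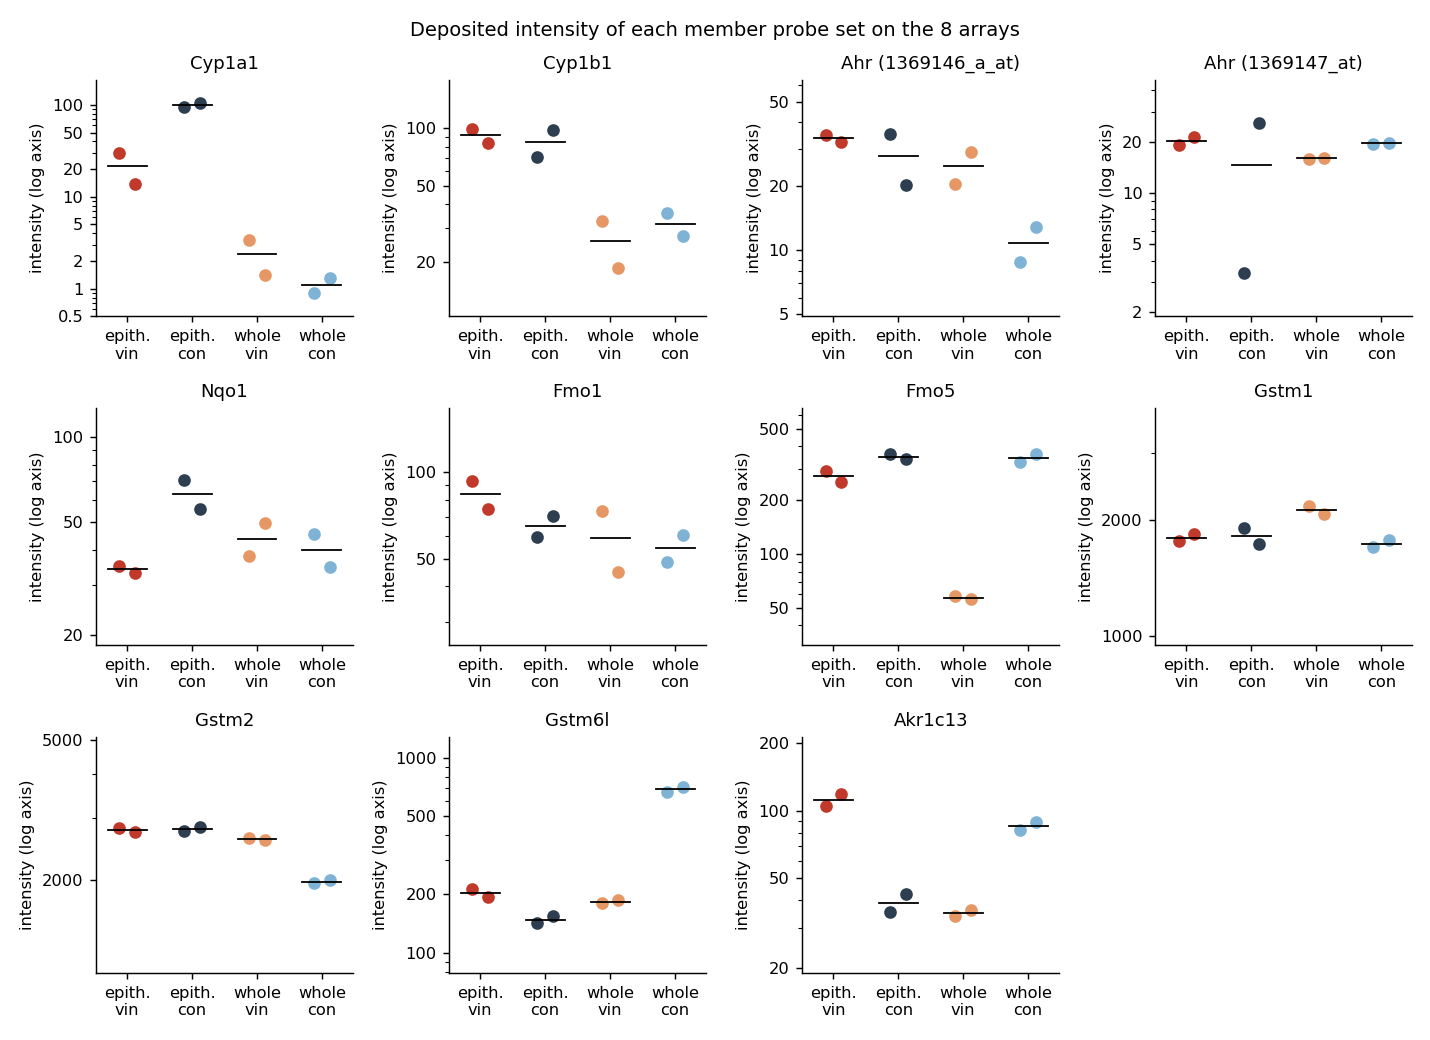
Deposited intensity (log axis) of the 11 member probe sets on the 8 arrays, by group (epith., prostate epithelium at 45 days; whole, whole ventral prostate at 180 days; vin, vinclozolin lineage; con, control lineage). Points are arrays and lines are group means, and of the Ahr panels the one marked a_at is the brighter probe set. Fmo5 is low in whole prostate vinclozolin alone, Gstm6l is high in whole prostate control alone, and Cyp1a1 is near the bottom of the scale on all 4 whole prostate arrays.

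The receptor gene Ahr was dim on both of its probe sets, which did not run alike. The brighter probe set read 34.9 and 32.4 units in epithelium vinclozolin, 35.3 and 20.4 in epithelium control, 20.6 and 29.1 in whole prostate vinclozolin and 8.8 and 12.9 in whole prostate control. Whole prostate control was the lowest of the 4 groups, and epithelium control overlapped the other 2. The dimmer probe set read 19.2 and 21.2 units in epithelium vinclozolin, 3.4 and 25.6 in epithelium control, 15.8 and 16.1 in whole prostate vinclozolin and 19.3 and 19.7 in whole prostate control. In whole prostate the vinclozolin minus control difference was 0.56 ± 0.18 on the brighter probe set and -0.24 ± 0.32 on the dimmer, so they gave no common direction. In epithelium the values were 0.16 ± 0.18 and 0.28 ± 0.32. Over the 8 arrays the probe sets correlated at r = -0.63, a description of 8 arrays that share groups.

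Cyp1a1, the oxidase whose induction is the usual sign of Ah receptor activation, was lower in vinclozolin than in control epithelium. It read 30 and 13.7 units in epithelium vinclozolin, against 93.9 and 104.1 units in epithelium control. The groups did not overlap, and the 2 vinclozolin arrays differed from each other more than the control arrays did. The difference was -1.72 ± 0.20, a description since the gene was chosen for it. In whole prostate Cyp1a1 read 3.4 and 1.4 units in the vinclozolin lineage and 0.9 and 1.3 in the control lineage, which is near the lowest values of the array, and no fold is given there.

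Cyp1b1, a related oxidase that also hydroxylates estrogens, did not share that lineage pattern. It read 99.2 and 83.6 units in epithelium vinclozolin, against 70.8 and 97.5 in epithelium control (0.10 ± 0.24). In whole prostate it read 32.6 and 18.7 units in the vinclozolin lineage, against 35.8 and 27.4 in the control lineage (-0.28 ± 0.24). The lineages overlapped in both preparations. Nqo1, a quinone reductase that is a target of both the Ah receptor and Nrf2, read 35.2 and 33.2 units in epithelium vinclozolin, against 70.4 and 56.0 in epithelium control. The epithelium groups did not overlap (-0.71 ± 0.17). Its whole prostate values, 38.0 and 49.6 units in the vinclozolin lineage and 45.5 and 34.7 in the control lineage, overlapped (0.08 ± 0.17).

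Fmo5, a flavin monooxygenase, was the member with the largest difference between lineages in whole prostate. It read 58.4 and 56.0 units in whole prostate vinclozolin, against 325.9 and 363.2 in whole prostate control, a ratio of mean intensities of 0.166. In epithelium it read 292.3 and 253.4 units in the vinclozolin lineage, against 360.9 and 338.5 in the control lineage. The lineages lay apart in both preparations and in the same direction, with differences of -2.15 ± 0.12 in whole prostate and -0.35 ± 0.12 in epithelium. Whole prostate vinclozolin was the lowest group, and epithelium control and whole prostate control overlapped at the top. Fmo1, which oxidises nitrogen and sulphur atoms of many drugs, read 93.0 and 74.7 units in epithelium vinclozolin, against 59.3 and 70.5 in epithelium control. In whole prostate it read 73.1 and 45.0 units in the vinclozolin lineage and 48.6 and 60.4 in the control lineage. Its differences were 0.31 ± 0.21 in epithelium, where the vinclozolin arrays lay just above the control arrays, and 0.07 ± 0.21 in whole prostate, where the lineages overlapped.

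Gstm6l, of the mu class glutathione transferases, was high in a single group. It read 180.5 and 186.5 units in whole prostate vinclozolin, against 666.2 and 710.1 in whole prostate control, a ratio of mean intensities of 0.267. In epithelium it read 211.9 and 193.4 units in the vinclozolin lineage, against 142.2 and 155.1 in the control lineage. The arrays of the lineages lay apart in both preparations and in opposite directions, at -1.76 ± 0.12 in whole prostate and 0.42 ± 0.12 in epithelium. The well-expressed Gstm1 and Gstm2 did not share this. Gstm1 read 2185.2 and 2083.4 units in whole prostate vinclozolin, against 1700.8 and 1776.5 in whole prostate control (0.19 ± 0.11), and Gstm2 read 2639.9 and 2601.8 against 1961.1 and 1999.4 (0.30 ± 0.10). Both were thus higher in the vinclozolin lineage there, by little. In epithelium the Gstm1 and Gstm2 differences were 0.00 ± 0.11 and 0.01 ± 0.10. On every array both lay between the 97.9th and the 98.9th percentile of all probe sets.

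In the RefSeq gene order of GRCr8 these genes lie side by side in the order Gstm5, Gstm6l, Gstm7, Gstm6, Gstm3l1, Gstm3, Gstm2, Gstm1, Gstm4. Gstm7, the neighbour of Gstm6l, read 392.4 and 400.4 units in whole prostate vinclozolin, against 751.2 and 607.5 in whole prostate control. In epithelium it read 498.7 and 498.7 units in the vinclozolin lineage, against 343.2 and 376.9 in the control lineage. Its differences of -0.73 ± 0.14 and 0.47 ± 0.14 had the signs of Gstm6l but did not pass the test (limma adjusted p = 0.057 and 0.31). Gstm5 and Gstm4 at the ends of the cluster measured -0.11 ± 0.13 and 0.19 ± 0.12 in whole prostate and also did not pass (adjusted p = 0.72 and 0.43). Mu class genes are close paralogs, and whether each probe set reads 1 of them alone was not tested.

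**Figure D2:**
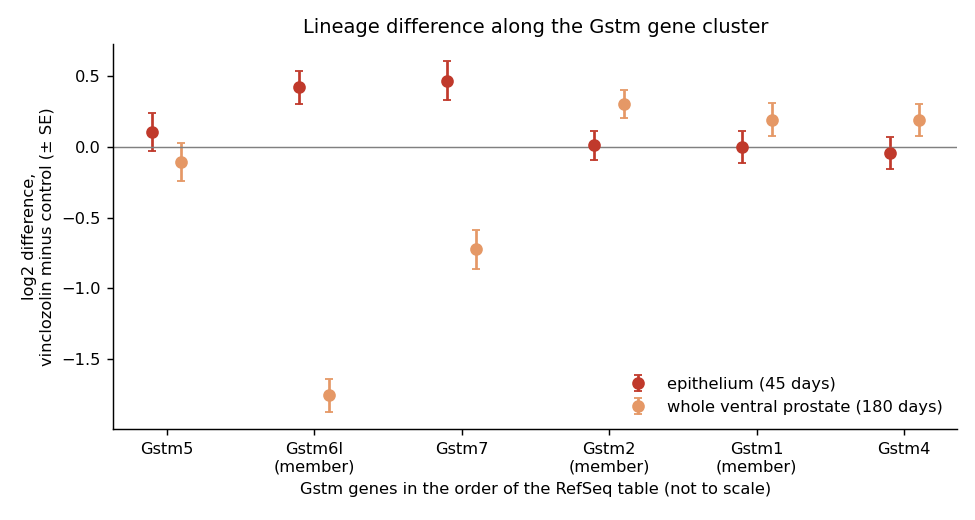
Log2 difference (± SE, n = 2 arrays per group), vinclozolin minus control, for the 6 Gstm genes of the cluster that passed the filter on low values, in gene order and not to scale. Gstm6l and Gstm7 lie below 0 in whole prostate and above 0 in epithelium, and the other 4 genes lie between -0.11 and 0.30.

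Akr1c13, an aldo-keto reductase, also differed in opposite directions. It read 104.8 and 118.8 units in epithelium vinclozolin, against 35.3 and 42.5 in epithelium control, a ratio of mean intensities of 2.87. In whole prostate it read 34.0 and 36.0 units in the vinclozolin lineage, against 81.9 and 88.8 in the control lineage, a ratio of 0.41. The arrays lay apart in both preparations, with differences of 1.28 ± 0.13 and -0.94 ± 0.13. Epithelium vinclozolin and whole prostate control were thus the higher groups, and the 2 lower groups overlapped. Its relatives Akr1c14 and Akr1c19 measured -0.25 ± 0.24 and -0.06 ± 0.28 in whole prostate and 0.16 ± 0.24 and 0.21 ± 0.28 in epithelium, none larger than about its SE and none called.

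**Figure D3:**
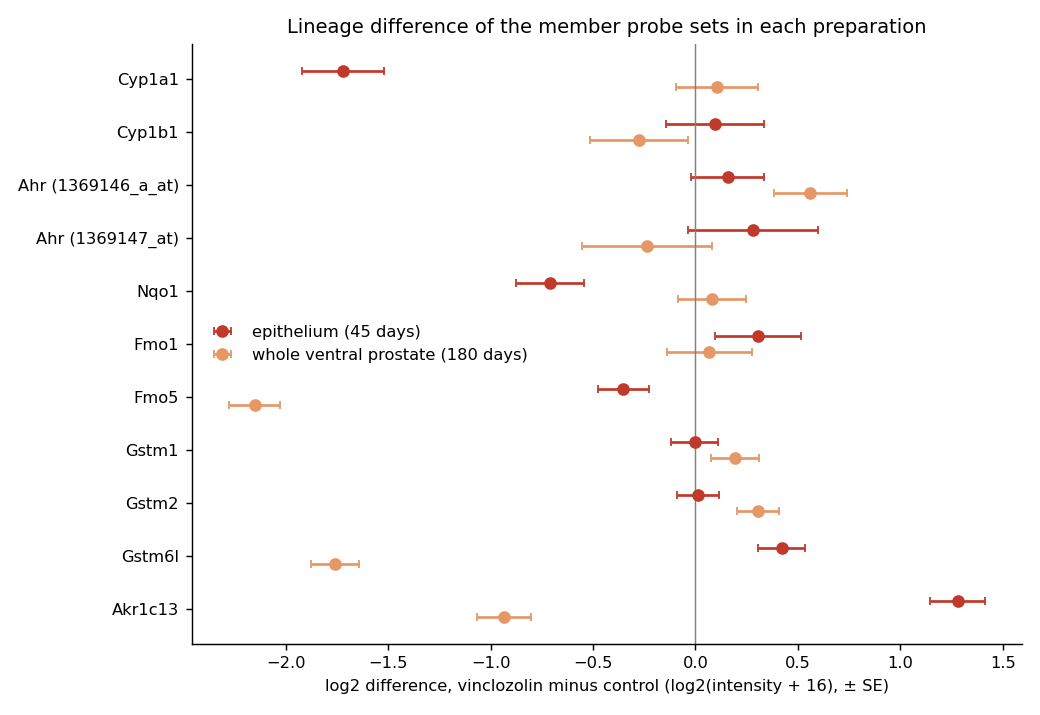
Log2 difference (± SE, n = 2 arrays per group), vinclozolin minus control, of the 11 member probe sets in epithelium and in whole ventral prostate. Fmo5 (-2.15) and Gstm6l (-1.76) stand out on the low side in whole prostate, Cyp1a1 (-1.72) on the low side and Akr1c13 (1.28) on the high side in epithelium.

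Over the 11 member probe sets the lineages did not overlap for 7 in whole prostate, where 53.9% of all probe sets did not, and for 6 in epithelium, where 39.4% did not. The genes were chosen from these differences, so nothing is read from these counts. In the whole table, 1.74% of 21729 probe sets were called between lineages in whole prostate (0.819% up and 0.925% down) and 0.0092% in epithelium, at a Benjamini-Hochberg adjusted p under 0.05. Markers of other cell types also differed between lineages in whole prostate. Of 6 skeletal muscle markers 3 were called lower, with summed intensities of 1551 to 1572 in the vinclozolin lineage and 2778 to 2987 in the control lineage. The 5 markers of seminal vesicle and other accessory glands summed to 125 to 149 units in whole prostate vinclozolin, against 379 to 410 in whole prostate control. Of the 3 that passed the filter, 1 was called lower. The 4 lymphocyte markers summed to 169 to 206 units in whole prostate vinclozolin, against 86 to 105 in whole prostate control, with 0 called. Smooth muscle markers summed to 1902 to 2050 units in the vinclozolin lineage, against 2440 to 2489 in the control lineage. Fibroblast markers summed to 2531 to 2561 against 2850 to 2859, with 0 called in both lists. Macrophage sums were also lower, at 1253.9 to 1310.5 against 1513.7 to 1640.3, although 1 of the 6 markers was called higher. Luminal, basal, liver and mast cell sums were higher without overlap, with 0 called. No marker was listed at 0 on any array. In epithelium the 5 accessory gland markers summed to 265 to 268 units in the vinclozolin lineage, against 153 to 178 in the control lineage. Smooth muscle markers summed there to 12904 to 13139 units in the vinclozolin lineage, against 14767 to 14969 in the control lineage. Skeletal muscle markers summed to 6812 to 6925 against 7942 to 8037. Basal and macrophage sums were also lower without overlap, and liver sums were higher. None of these markers was called in epithelium. The accessory gland sums thus had the signs of Gstm6l and Akr1c13 in both preparations. The part of these markers' cell types in the results was not tested. In RNA of whole tissue, fewer cells of a type and less RNA per cell cannot be told apart.

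Epithelium and whole prostate were then compared over both lineages, with the 4 arrays of each. Age and preparation changed together and cannot be told apart. This comparison does not contrast the lineages, although it shares the arrays and the estimate of the spread of the lineage differences. A shift of a single group, for which a gene may have been chosen, still enters the mean over lineages. Cyp1a1 passed the filter on low values through its epithelium arrays, the group where it is high, so its difference is given as a description with no test. Of the other 10 member probe sets the limma fit called 4 (3 up and 1 down in epithelium), Fmo5 and Gstm6l among them. Of all probe sets it called 41.4% (18.5% up and 22.9% down), so the members' share was near that of all probe sets. The arrays of the preparations did not overlap for 3 of the 11, Cyp1a1 among them, against 36.4% of all.

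Cyp1a1 and Cyp1b1 were higher in epithelium in both lineages. Cyp1a1 read 13.7 to 104.1 units on the epithelium arrays, against 0.9 to 3.4 on the whole prostate arrays, without overlap. Its log2 difference was 1.78, and 0.80 with a pseudocount of 64. Because the whole prostate values lie near the bottom of the scale, the added constant sets its size, and no error or fold is given. It had no value with a pseudocount of 1 or without either epithelium control array, where it fell under the filter. Cyp1b1 was higher by 1.07 ± 0.17 over both lineages (adjusted p = 0.0031), by 1.26 ± 0.24 in the vinclozolin lineage and by 0.88 ± 0.24 in the control lineage, and all 4 epithelium arrays lay above all 4 whole prostate arrays. Gstm2 was higher by 0.25 ± 0.07 (adjusted p = 0.033), a call that was lost with median centring, without the filter, with the replicate number as a block and with any 1 array left out (adjusted p from 0.064 to 0.52).

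For Fmo5, Gstm6l and Akr1c13 the mean over lineages joined unlike values. These genes were chosen for lineage differences, and a shift of a single group enters the mean. The calls of Fmo5 and Gstm6l are therefore not a result apart from that choice. Fmo5 was higher in epithelium by 1.02 ± 0.09 over both lineages (adjusted p = 0.00030), which came from 1.92 ± 0.12 in the vinclozolin lineage and 0.12 ± 0.12 in the control lineage. Gstm6l was lower by 0.95 on the log2 scale (-0.95 ± 0.08, adjusted p = 0.00030), from 0.14 ± 0.12 in the vinclozolin lineage and -2.04 ± 0.12 in the control lineage. Akr1c13 was not called (0.09 ± 0.09, adjusted p = 0.50), and its differences of 1.19 ± 0.13 in the vinclozolin lineage and -1.02 ± 0.13 in the control lineage had opposite signs. Ahr (0.28 ± 0.13 and -0.25 ± 0.22), Nqo1 (-0.08 ± 0.12), Fmo1 (0.16 ± 0.15) and Gstm1 (-0.10 ± 0.08) were not called, with adjusted p from 0.12 to 0.62. With median centring, which gives the whole comparison a median of -0.18 in place of -0.06, Gstm1 was called lower (-0.31).

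**Figure D4:**
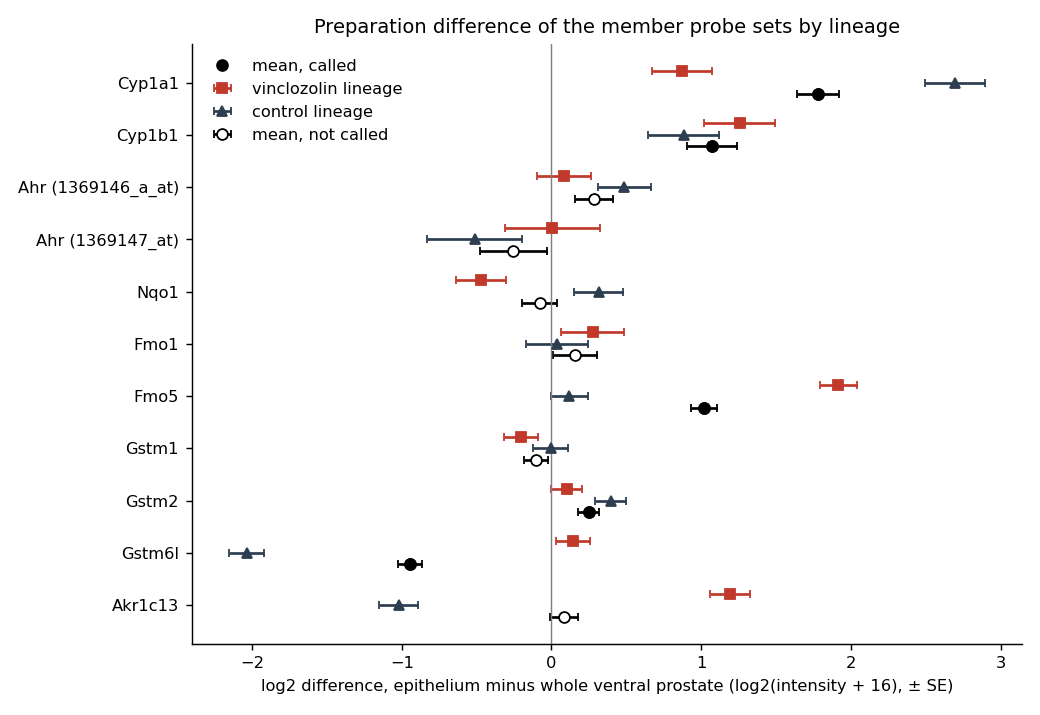
Log2 difference (± SE), epithelium minus whole ventral prostate, of the 11 member probe sets in the vinclozolin lineage, in the control lineage and as the mean of both. Filled circles are means with an adjusted p under 0.05. The filled circle of Cyp1a1 is not read as a test, since the gene passed the filter through its epithelium arrays. The size and the error bars for Cyp1a1 depend on the added 16. Cyp1a1 and Cyp1b1 lie above 0 in both lineages, while Akr1c13 lies at 1.19 in the vinclozolin and at -1.02 in the control lineage.

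Markers of other cell types differed strongly between the preparations. All 6 smooth muscle markers, 5 of 6 fibroblast markers and 4 of 5 basal markers were called higher in epithelium, with median differences of 2.80, 1.32 and 2.35. All 6 adipocyte markers that passed the filter were called lower, with 184 to 235 summed units on the epithelium arrays, against 2242 to 2561 on the whole prostate arrays. Of 6 macrophage markers 1 was called higher and 5 lower, and of 6 skeletal muscle markers 3 higher and 2 lower. All 3 mast cell markers that passed the filter and 3 of 4 lymphocyte markers were called lower, and 3 of 5 endothelial markers higher. The part of these differences in the results on Cyp1a1, Cyp1b1, Fmo5 and Gstm6l was not tested.

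Other genes of xenobiotic metabolism were taken from 10 lists with 241 genes that are not members. Of these, 190 were on the array and 134 passed the filter on their brightest probe set. Between lineages in whole prostate, 0 of the 134 were called higher and 2 lower (1.49%, against 1.74% of all probe sets), with a median of -0.01, as over all probe sets. Under the other settings 0 to 14 were called. The 14, under a trended and robust prior, were 4 higher and 10 lower, and a pseudocount of 64 gave 2 higher and 7 lower. Mgst1, a glutathione transferase of the endoplasmic reticulum, fell. It read 1571.7 and 1856.3 units in whole prostate vinclozolin, against 3289.0 and 3459.3 in whole prostate control (-1.10 ± 0.12, adjusted p = 0.012). In epithelium it read 5337.2 and 5124.6 units in the vinclozolin lineage, against 4877.9 and 5362.6 in the control lineage (0.08 ± 0.12, adjusted p = 0.86). Papss2, which makes the sulphate donor for sulphotransferases, fell by 0.61 on the log2 scale (adjusted p = 0.043) on 1 probe set, and its other measured -0.46 and was not called. Mgst1 was called in 11 of 17 other settings and Papss2 in 4 of 17. The Mgst1 call was lost when any 1 whole prostate array was dropped (adjusted p = 0.062 to 0.12), in a fit of the 4 arrays alone (0.065) and with the replicate block (0.087). The Papss2 call was lost when any 1 array of either preparation was dropped (0.068 to 0.24), without the filter (0.086), with a pseudocount of 1 (0.065), with the values as deposited (0.056), with the 4 arrays alone (0.12) and with the replicate block (0.16).

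Among the list genes that did not pass in whole prostate, Akr1b8, an aldo-keto reductase, measured 1.07 ± 0.22 (adjusted p = 0.072). It read 50.9 and 58.0 units in the vinclozolin lineage, against 11.3 and 22.9 in the control lineage. Values for the genes of lowest p in other lists were 0.47 ± 0.11 for Gpx1, a glutathione peroxidase, and 0.46 ± 0.13 for the cytochrome Cyp4f6. Ptges3, a cochaperone of the Ah receptor, measured -0.31 ± 0.11. Fmo2 measured -0.40 ± 0.12 on its probe set of lowest p, but 0.26 on its brightest and 0.14 on the other. The carboxylesterase Ces2c (-1.07 ± 0.32), the transporter Slco3a1 (-0.29 ± 0.15) and the transcription factor Foxa2 (0.80 ± 0.22) also did not pass.

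In epithelium, 0 of the 134 genes were called between lineages by limma, and 0 to 3 were called under the other processing settings. The median was 0.01, against 0.00 over all probe sets. Tiparp, which is induced by the Ah receptor and represses it, read 546.5 and 550.0 units in epithelium vinclozolin, against 728.3 and 688.9 in epithelium control. The arrays did not overlap, and the difference of -0.36 ± 0.11 did not pass (adjusted p = 0.32). Gstp1, the pi class glutathione transferase, read 544.2 and 638.5 units in epithelium vinclozolin, against 337.1 and 388.2 in epithelium control (0.69 ± 0.13, adjusted p = 0.21). Cbr1, a carbonyl reductase, measured 0.59 ± 0.13 and the cytochrome P450 reductase Por 0.48 ± 0.16. The aldehyde dehydrogenase Aldh3b1 measured 1.03 ± 0.24, the small Maf factor Mafk -0.51 ± 0.15, and Nr1h3, a nuclear receptor for oxysterols, -0.71 ± 0.22. Aldh3b1 read 8.4 and 11.8 units in epithelium control and Nr1h3 read 7.3 and 3.6 in epithelium vinclozolin. The size of both differences depends on the added 16. Fmo4 (-0.39 ± 0.14), Ugdh, which makes the donor for glucuronidation (0.39 ± 0.14), and the transporter Abcc5 (0.64 ± 0.26) also did not pass, with adjusted p up to 0.43. Abcc5 read 18.8 and 3.1 units in epithelium control on this probe set, and its other probe set measured 0.06.

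Between preparations, 50 of the 134 list genes were called (37.3%, against 41.4% of all probe sets), 35 higher and 15 lower in epithelium. With median centring the split was 27 higher and 36 lower, so the balance of directions depends on the scaling. The median was 0.03, against -0.06 over all probe sets. In the Ah receptor list Tiparp rose by 2.57 ± 0.08 and on its other probe set by 2.30, and Arnt, the partner of the receptor, rose by 0.60 ± 0.14. Ptges3 fell by 0.28. The probe sets of the chaperone gene Hsp90ab1 disagreed, at 0.85 and -0.28, both called. Aldh3a1, another Ah receptor target, measured 0.18 ± 0.18 and was not called.

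Among glutathione transferases 7 genes were called higher in epithelium and 1 lower, of 17. Gstp1 rose by 1.59 ± 0.09, Mgst1 by 1.01 ± 0.08, Gsta4 by 0.94 ± 0.11 and Gstm5 by 0.63 ± 0.09, while Mgst3 fell by 0.42. In the Nrf2 and glutathione supply list 9 were called higher and 4 lower, of 26. Maff, a small Maf factor that pairs with Nrf2, read 100.8 to 156.8 units on the epithelium arrays, against 1.3 to 13.8 on the whole prostate arrays, so that the size of its difference is set by the added 16 and is not given. Sqstm1 measured 0.93 ± 0.08, 0.45 and 0.29 on the 3 of its 4 probe sets that passed the filter, and 2 of these were called. Tkt, a transketolase, rose by 0.78 ± 0.08. Keap1, which holds Nrf2 in check, rose by 1.33 ± 0.09 on 1 of 2 probe sets and measured -0.21 on the other.

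Of the hydrolases and dehydrogenases 5 were called higher and 1 lower, of 19. Maoa, a monoamine oxidase, rose by 1.70 ± 0.08, the carboxylesterase Ces1e by 1.44 ± 0.10 and Aldh1a3, which makes retinoic acid, by 0.79 ± 0.07, while Xdh, xanthine dehydrogenase, fell by 0.34. Of the aldo-keto and carbonyl reductases 3 were called higher and 1 lower, of 12. Cbr1 rose by 1.09 ± 0.09, Cbr4 by 0.53 ± 0.08 and Dcxr by 0.34 ± 0.07, and Akr1e2 fell by 0.41. Of other conjugating enzymes 6 were called higher and 3 lower, of 17. Papss1 rose by 0.85 ± 0.08 and Sult1a1, a sulphotransferase, by 0.79 ± 0.09, Inmt, a methyltransferase, fell by 0.87, and the probe sets of Papss2 disagreed (0.79 and -0.43).

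Of 16 cytochrome P450 and reductase genes 1 was called higher and 1 lower. They were Por, which rose by 1.12 ± 0.11 on 1 probe set and by 0.41 on the other, and Cyp2d4, which fell by 0.65 on 1 of 2 probe sets. Of 2 further flavin monooxygenases Fmo2 was called lower on 2 of 3 probe sets (-0.48 and -0.55, and 0.39 on the other), and Fmo4 on 1 of 2 (-0.59). Of 13 drug transporters 2 were called higher and 1 lower. Slco3a1 rose by 0.99 ± 0.11 on 1 probe set and by 0.49 on the other, Slc22a5 by 0.39 ± 0.13, and Abcc4 fell by 0.48. Of 7 nuclear receptors and related factors 0 were called by limma, and Foxa1 had the lowest p (-0.24 ± 0.08, adjusted p = 0.061).

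**Figure D5:**
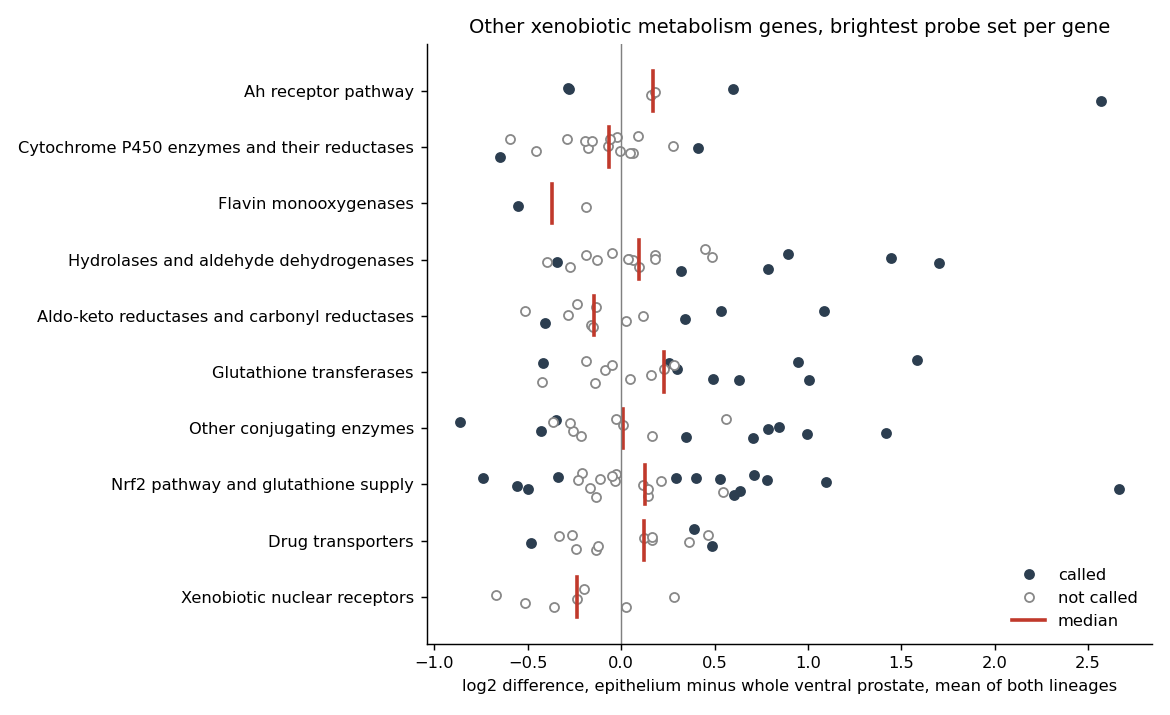
Log2 difference, epithelium minus whole ventral prostate (mean of both lineages), of the 134 other xenobiotic metabolism genes by list, with 1 point per gene and list (brightest probe set). Filled points were called and red bars are list medians. Tiparp lies at 2.57. The point of Maff, farther right, has no settled size, since its whole prostate arrays read near the bottom of the scale.

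The genes whose levels ran most like those of the 4 genes chosen for their lineage difference were found by Pearson correlation over the 8 arrays, which share 4 groups. For Cyp1a1 these were Anxa1, encoding annexin A1 (r = 0.989), Gpn2 (0.985) and the transcription factor gene Stat3 (0.979). Anxa1 read 4180.0 and 3996.7 units in epithelium vinclozolin, against 5592.7 and 5493.1 in epithelium control, and 3059.9 to 3533.4 in whole prostate. For Fmo5 they were Lratd1 (0.994), Cmahp (0.991) and Egf, encoding epidermal growth factor (0.986). Cmahp read 329.6 and 294.9 units in whole prostate vinclozolin, against 3617.4 and 3714.7 in whole prostate control. For Gstm6l they were Atp6v1c2, a proton pump subunit gene (0.993), Cdk14 (0.985) and Papss2 (0.982). For Akr1c13 the likeness was looser, with the homeobox gene Hoxa5 (0.949), Pbsn, encoding the secreted protein probasin (0.925), and the thyroid hormone receptor gene Thrb (0.920).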

How the data were processed

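The authors deposited 1 linear intensity for each of 31099 probe sets and 8 arrays. Biotin labelling followed the maker's standard procedure, per the labels' protocols. The software behind the intensities: not given in the sources used here. Arrays share a trimmed mean, as their values show, and their medians ranged from 28.7 to 38.7. The number of arrays limits the precision. The 57 control probe sets were left out, values were taken to log2(value + 16), arrays were quantile normalised, and a filter at the 30th percentile of mean level kept 21729, all 11 member probe sets among them. Group means of all 8 arrays were fitted with limma 3.58.1 in R 4.3.3 (4 residual degrees of freedom, prior 2.62), with Benjamini-Hochberg adjustment over all probe sets kept and calls at an adjusted p under 0.05. Tables and plots were made with Python 3.11.15 and matplotlib 3.10.9. Genes were named through GEO's platform annotation, which gives 1 symbol for 20826 probe sets, several for 436 and none here for 9780. Of the 20826, 20758 had an Entrez identifier in RefSeq. The members and lists were chosen with earlier results of these data known. All members are described. Of each list, up to 4 called genes of lowest p per comparison are named, or the 1 of lowest p where none was called. Gstm7, Gstm4, Akr1c14, Akr1c19, Mgst3 and Aldh3a1 were named outside this rule, after their values were seen. Likeness was taken on the member's probe set, with 3 genes each. In simulated data of 21729 probe sets, 90% of known changes of 2 log2 units were called in the whole prostate comparison. The share was 86% in epithelium and 97% between preparations. For changes of 1 unit the shares were 31%, 33% and 71%. Of the calls, 7 of 128, 11 of 130 and 5 of 173 were false. The simulation changed 100 probe sets per size, with independent noise drawn from limma's prior for the spread. Its shares need not hold for these data.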

Additional observations from a re-analysis of the deposited data

Results flagged for a closer look

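The lineage differences of Gstm6l and Akr1c13 had opposite signs in the preparations, with arrays of the lineages apart in both. Epithelium less whole prostate, the signed lineage difference was 2.18 ± 0.16 on the log2 scale for Gstm6l and 2.21 ± 0.19 for Akr1c13. In size the Gstm6l difference was smaller in epithelium (0.42) than in whole prostate (-1.76). The difference between preparations was not tested here, because both genes were chosen from these comparisons.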

How the results depend on the processing

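The count of probe sets called between lineages in whole prostate, 379, was 200 without the filter, 235 and 1133 with a pseudocount of 1 and 64, 1814 with a trended and robust prior, 871 with array weights, 86 with the 4 arrays alone, and 24 to 225 with 1 array left out, lowest without whole prostate control replicate 2. With median centring 178 were higher and 315 lower, against 178 and 201. In epithelium the 2 calls became 66 with a pseudocount of 64, 205 with the trended and robust prior, 1 with median centring, and 0 without the filter, with a pseudocount of 1, array weights or only the epithelium arrays, and when an array was dropped. The count between preparations, 8995 (4021 higher and 4974 lower), was 5946 in the vinclozolin arrays only and 6755 to 8143 with 1 array left out, and with median centring 3198 were higher and 7437 lower. Its median over all probe sets, -0.06, was -0.18 with median centring and 0.04 with the values as deposited. The 5 member calls between preparations, counting Cyp1a1, became 3 to 5 with 1 array left out, the lowest without epithelium control replicate 1, where Cyp1a1 fell under the filter, as it did without replicate 2 and with a pseudocount of 1. In those settings Cyp1a1 has no value. Its call is not read as a test in any setting, since it passed the filter through its epithelium arrays. The member counts that include Cyp1a1 are given only to show how the output of the fit changes. The difference between preparations of Gstm6l was 0.14 in the vinclozolin arrays only, against -0.95, and that of Akr1c13 was -1.02 in the control arrays only, against 0.09. Among other not-called members, Ahr passed on its brighter probe set with the values as deposited (0.49) and without epithelium control replicate 2 (0.39), and on the dimmer without that replicate (-0.52). The causes of these changes were not tested. The lineage differences of Cyp1a1 in epithelium (-2.02 to -0.96, over 14 alternatives) and of Fmo5, Gstm6l and Akr1c13 in both preparations (17 alternatives) kept their sign in each. Same-numbered arrays of the lineages did not deviate together (correlation over probe sets 0.03 in epithelium and 0.00 in whole prostate). With 2 arrays per group this cannot exclude that the numbers pair the samples. With the replicate block 32 probe sets were called in whole prostate, 0 in epithelium and 8043 between preparations. Depth does not apply to arrays, and the share of probe sets near background limits what can be seen in dim genes such as Ahr and Cyp1a1.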
